A study of Mus musculus with 16 samples.

Results

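Bright white light damages the retina of albino mice, and the comparison described here followed the transcripts of the wild-type retina 24 h after such light. It set 3 arrays of wild-type Nxnl1+/+ retinas exposed to 5000 lux against 2 arrays of wild-type retinas exposed to 50 lux, 5 of the 16 arrays in the series. Arrays were assigned by genotype and dose in their labels, and no measured value was used. All mice were on a BALB/c background, 11 to 16 weeks old, with males and females in equal proportion, and had been raised in a cycle of 12 h at 50 lux and 12 h of darkness. They were kept dark for 16 h, exposed to cool white fluorescent light for 1 h with 1 mouse per cage, and left in the dark for another 24 h, the 50 lux group included. The labels say that the neural retina was freed of the retinal pigment epithelium (RPE) and that RNA was purified by cesium chloride ultracentrifugation. They call the arrays biological replicates without saying whether an array held 1 animal or a pool. The other 11 arrays were wild-type retinas at 2500 lux (3 arrays) and Nxnl1-/- retinas at 5000, 2500 and 50 lux (2, 3 and 3 arrays).

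Rods and cones turn absorbed light into an electrical signal through phosphodiesterase and the cyclic GMP-gated channel, and their spent chromophore is rebuilt by the visual cycle, which runs largely in the RPE and in Müller glia. Albino eyes lack the melanin that shields the photoreceptors. Photoreceptors under stress are known to release factors such as endothelin 2, and Müller glia respond through the gp130 cytokine receptors and the transcription factor Stat3, with a rise of intermediate filaments and acute-phase proteins. Interferon-stimulated genes and class I antigen presentation form a further known arm of the response to retinal injury.

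Values are log2 of the deposited intensities. Of 45037 probe sets, 23320 were brighter than an intensity of 16 (log2 4) on 2 or more arrays and were tested with limma on all 16 arrays. A gene passed the test, and is said to have risen or fallen, where its adjusted p was under 0.05; each of 10916 genes is represented by its brightest probe set. With all arrays 825 genes rose (7.56%) and 575 fell (5.27%), over a median log2 difference of 0.004 for all genes. The arrays did not overlap between the groups in 2720 genes that were higher (24.9%) and in 2443 that were lower (22.4%). The gene lists used below were chosen with earlier results of these data known. Their counts describe the members only and are read beside these shares. A call "held" where it also passed in each of the 5 fits that left out 1 of the 5 arrays, as 349 of the rises and 128 of the falls did. In the 81 list genes whose call did not hold, the highest adjusted p came from leaving out a 50 lux array. Such a fit leaves 1 array at 50 lux and is less precise. A lost call therefore does not show that the result depends on the array left out. In bulk retina, fewer cells of a type and less RNA per cell cannot be told apart.

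Replicate 2 at 5000 lux stood apart in its lens RNA. The 11 measured lens genes, which encode crystallins and the lens galectin Grifin, had a mean log2 level of 2.54, 12.25 and 3.38 on replicates 1, 2 and 3 at 5000 lux, against 3.64 and 2.69 at 50 lux. Cryaa, the alpha A chain of the major lens chaperone, stood at 2.81, 13.96 and 5.72 on the 5000 lux arrays, against 5.62 and 2.81 on the 50 lux arrays. A further 9 lens genes were at or near the lowest value elsewhere, and 7 of them exceeded log2 4 on replicate 2, among them the lens fibre membrane proteins Mip (8.23) and Lim2 (7.87) and the beaded filament protein Bfsp1 (8.62). None of the 11 passed the test, with replicate 2 or without it, and the median difference of the lens list was 3.01 with all arrays and -0.03 without that array. Of the 452 measured members of the other lists, only Nid1, Hspb1, Cryab and Prph2 moved by over 1 log2 unit when the array was left out. Without it 735 genes rose (6.73%) and 491 fell (4.5%). Of the 1400 calls, 701 rises and 453 falls passed again in the same direction, 246 were lost, and 72 genes were gained. Counted over probe sets, 1393 rose (5.97%) and 1054 fell (4.52%) with all arrays, and 1219 rose (5.23%) and 881 fell (3.78%) without replicate 2. Some of the other genes that moved without this array were bright on it. The fatty acid-binding protein Fabp5 was at 10.01, 12.56 and 9.76 at 5000 lux and 9.96 and 9.59 at 50 lux. The surface sialoglycoprotein Cd24a was at 9.06, 11.32 and 9.08 at 5000 lux and 8.31 and 8.34 at 50 lux. Eml2, a microtubule-associated protein, was at 7.18, 3.36 and 3.82 at 5000 lux and 7.12 and 6.70 at 50 lux. Slco1c1, a thyroid hormone transporter, was at 6.39, 4.19 and 5.04 at 5000 lux and 6.17 and 6.10 at 50 lux. Eml2 and Slco1c1 were thus low on replicate 3 as well as on replicate 2, and replicate 1 was near the 50 lux arrays. The same rule named Igfbp7, a secreted growth factor-binding protein, with a log2 difference of 1.59 with all arrays and 1.04 (adjusted p = 0.27) without replicate 2, and Polr1b, an RNA polymerase I subunit, with -1.04 and -0.53 (adjusted p = 0.27).

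**Figure D1:**
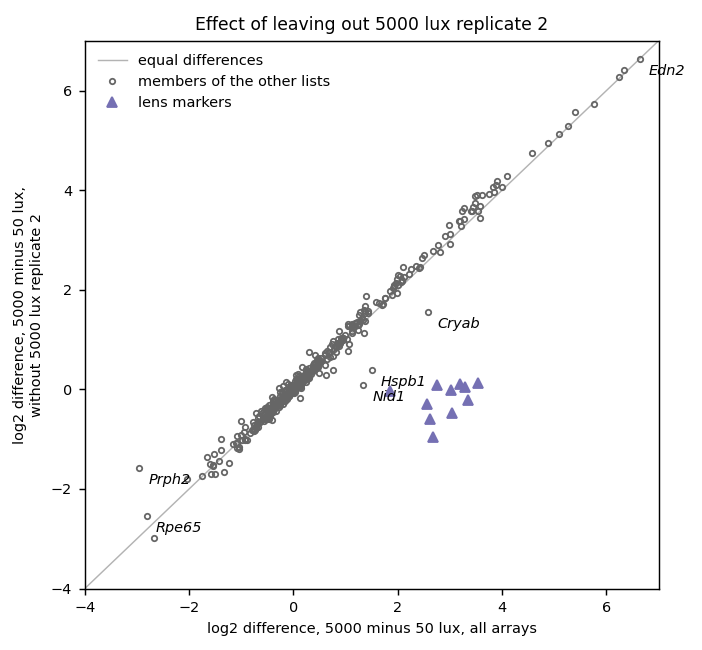
The log2 difference of each measured list member, 5000 minus 50 lux, with all arrays on the x axis and without 5000 lux replicate 2 on the y axis; the grey line marks equal differences. The 11 lens markers (triangles) lie near 0 on the y axis and at 1.85 to 3.54 on the x axis, while Edn2 and Rpe65 stay close to the line.

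The genes that rose most included several of endothelin, cytokine and acute-phase signalling. Edn2, the endothelin that stressed photoreceptors release, stood at 10.49, 10.36 and 10.26 on the 5000 lux arrays, against 3.57 and 3.89 on the 50 lux arrays. The 2 groups were far apart, and Edn2 was at least 82.7-fold higher in 5000 lux retinas (adjusted p = 7.4e-08). Cebpd, a transcription factor of the acute-phase response, stood at 11.87, 11.64 and 11.86 on the 5000 lux arrays, against 5.88 and 5.02 on the 50 lux arrays. It rose 80.8-fold, by a log2 difference of 6.34 (SE 0.23, adjusted p = 7.1e-09). S100a6, a calcium-binding protein, stood at 11.00, 10.89 and 10.91 on the 5000 lux arrays, against 5.16 and 4.23 on the 50 lux arrays, a difference of 6.24 (SE 0.31, adjusted p = 7.4e-08). Nupr1, a stress-induced chromatin protein, was at least 25.8-fold higher, with 8.37, 8.94 and 8.76 at 5000 lux and 3.17 and 2.97 at 50 lux. Lcn2, the iron-scavenging acute-phase protein lipocalin 2, rose 42.1-fold, with a mean of 9.99 ± 0.42 at 5000 lux and 4.59 ± 0.13 at 50 lux (SD, n = 3 and 2). Serpina3n, a secreted serine protease inhibitor, was at least 20.0-fold higher and Serping1, the C1 inhibitor of complement, at least 15.5-fold higher. Tnnt2, cardiac troponin T, was at least 10.9-fold higher, with 6.95, 7.78 and 7.59 at 5000 lux and 2.69 and 3.00 at 50 lux; its 3 tested probe sets all rose.

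Nudt6, a nudix hydrolase, had the smallest p of all genes that rose. It stood at 11.20, 11.01 and 11.08 on the 5000 lux arrays, against 6.46 and 6.36 on the 50 lux arrays, a difference of 4.69 (SE 0.14, adjusted p = 1.4e-09). In the RefSeq annotation Nudt6 overlaps Fgf2, the basic fibroblast growth factor that supports photoreceptor survival, on chromosome 3. Fgf2 was lowest on replicate 2 among the 5000 lux arrays, with 6.04, 4.79 and 5.66 at 5000 lux and 2.26 and 2.28 at 50 lux, and was at least 2.82-fold higher (adjusted p = 1.5e-05). A second Nudt6 probe set rose less, by 2.41. The strand each probe set reads was not checked. All 12 of the largest rises held. They were chosen among genes that passed with all arrays and without replicate 2 and did not overlap between groups. Passing in those fits was thus fixed by the choice, and only the other left-out arrays were open.

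**Figure D2:**
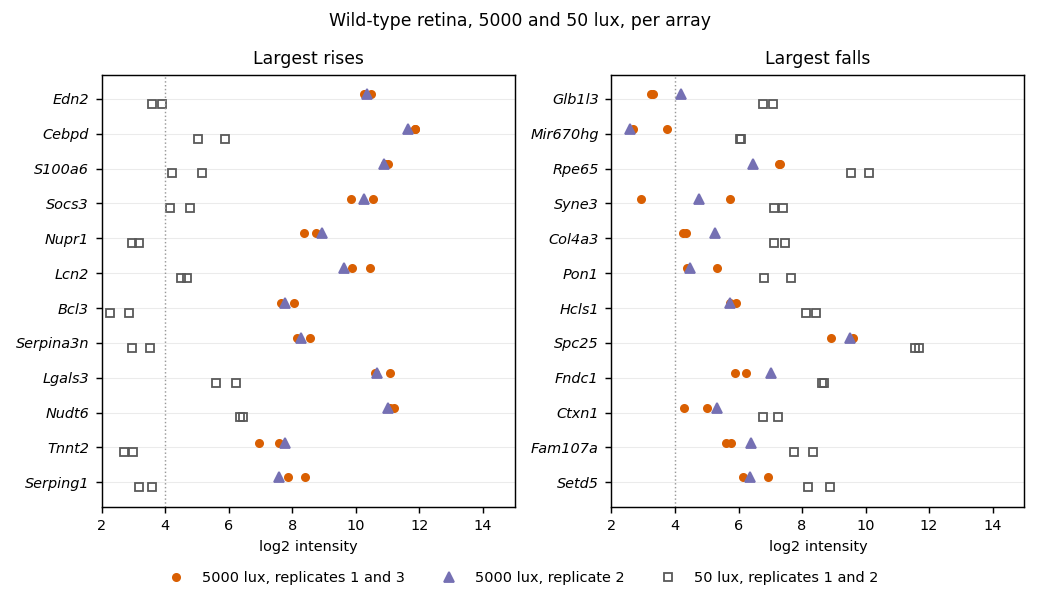
The log2 intensity of the 12 genes with the largest rise (left) and the 12 with the largest fall (right) on each array; the dotted line is log2 4. Filled symbols are the 5000 lux arrays, with replicate 2 as a triangle, and open squares are the 50 lux arrays; genes were chosen among those whose groups do not overlap.

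The gp130 cytokines signal to Stat3 through receptors that share the gp130 chain. The ligands Lif, Il6, Il11 and Osm did not reach log2 4 on 2 arrays. Of 5 measured gp130 genes 3 rose and none fell, and 1 held, while 7.56% of all genes rose. Osmr, the oncostatin M receptor, stood at 9.19, 8.66 and 9.28 on the 5000 lux arrays, against 5.94 and 5.36 on the 50 lux arrays, and rose 10.5-fold, a log2 difference of 3.40 (SE 0.27, adjusted p = 3.0e-06). Il6st, the shared gp130 chain itself, rose 2.03-fold, with 9.17, 9.23 and 9.25 at 5000 lux and 8.19 and 8.19 at 50 lux, and Clcf1, a ligand of the ciliary neurotrophic factor receptor, was at least 2.31-fold higher; their highest adjusted p when an array was left out was 0.051 and 0.2. Without replicate 2 Clcf1 had 1.53 (adjusted p = 0.052). The receptors Lifr (log2 difference -0.04) and Cntfr (-1.09) did not pass (adjusted p = 0.87 and 0.16).

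Of 11 genes of Stat3 signalling and its feedback 8 rose, 6 of them held, and none fell, while 7.56% of all genes rose. The list median was 1.26 on the log2 scale. Stat3 stood at 11.11, 11.01 and 11.06 on the 5000 lux arrays, against 8.61 and 8.69 on the 50 lux arrays, a 5.31-fold rise (adjusted p = 2.7e-06), and each of its 3 tested probe sets rose. Socs3, the feedback inhibitor of gp130 receptors, stood at 9.86, 10.26 and 10.54 at 5000 lux, against 4.77 and 4.15 at 50 lux. It rose 54.1-fold, a log2 difference of 5.76 (SE 0.35, adjusted p = 3.1e-07). Bcl3, a nuclear IkappaB protein, was at least 14.2-fold higher, and Cebpb, a relative of Cebpd, rose 4.66-fold. Socs2, another feedback inhibitor, rose 2.39-fold. Pim1, a kinase induced by Stat proteins, and Cish, a Socs family member, rose by 0.87 and 1.24, and reached adjusted p of 0.11 and 0.09 when an array was left out. The kinases Jak1, Jak2 and Tyk2, which carry the receptor signal, did not pass (log2 differences -0.26, 0.01 and -0.17).

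The 250 bases before the Socs3 start are shown because Socs3 rose most among the Stat3 feedback genes and because a Stat-type palindrome lies there. The sequence is RefSeq's (GRCm38.p6, chr11:117969367-117969616 on the reverse strand), read 5′ to 3′ along the gene, with the match to TTCNNNGAA in capitals.
Socs3: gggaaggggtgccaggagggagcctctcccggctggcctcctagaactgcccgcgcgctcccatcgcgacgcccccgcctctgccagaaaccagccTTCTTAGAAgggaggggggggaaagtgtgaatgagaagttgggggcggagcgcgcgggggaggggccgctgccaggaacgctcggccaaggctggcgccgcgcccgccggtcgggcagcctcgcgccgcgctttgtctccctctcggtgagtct
The match starts 154 bases before the transcript start. A match to TTCNNNGAA, which reads the same on both strands, occurred in the 250 bases before 2306 of 32851 RefSeq starts (7.02%). Among the 6 Stat3-pathway members that rose and have a promoter in the table, 1 held it, Socs3. A match of letters describes the sequence only.

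The endothelin system had 4 measured genes, of which Edn2 and its receptor gene Ednrb rose and held, while 7.56% of all genes rose. Ednrb, the endothelin B receptor found on Müller glia and astrocytes, stood at 8.19, 8.16 and 8.87 on the 5000 lux arrays, against 5.98 and 6.14 on the 50 lux arrays, a 5.09-fold rise (adjusted p = 1.6e-04). The converting enzymes Ece1 and Ece2 did not pass (adjusted p = 0.85 and 0.22), though Ece2 fell in the fit without 5000 lux replicate 1, and Edn1 and Edn3 did not reach log2 4 on 2 arrays.

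Among 14 trophic factors and receptors Fgf2 rose, as given above, and Nxnl1 and Nxnl2 fell. These are small counts, as 7.56% of all genes rose and 5.27% fell. The product of Nxnl1, rod-derived cone viability factor, has a thioredoxin fold and is released by rods to sustain cones. Nxnl1 stood at 6.11, 6.43 and 5.64 on the 5000 lux arrays, against 7.61 and 7.53 on the 50 lux arrays. The groups did not overlap and Nxnl1 fell 2.85-fold, a log2 difference of -1.51 (SE 0.31, adjusted p = 0.0062); leaving out 50 lux replicate 1 gave adjusted p = 0.066. Its relative Nxnl2 was at 10.64, 10.91 and 10.72 at 5000 lux and 11.52 and 11.46 at 50 lux, a fall by 0.73 (SE 0.12, adjusted p = 0.0011) that held. Bdnf, the brain-derived neurotrophic factor, had 0.76 (adjusted p = 0.057) with all arrays and passed without replicate 2, at 0.97 (adjusted p = 0.018). Receptors such as Ntrk2 (0.38) and Fgfr1 (0.95) did not pass.

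Of 16 genes of reactive glia 13 rose, 12 of them held, and none fell, while 7.56% of all genes rose. The list median was 2.79 on the log2 scale. Gfap, the intermediate filament by which reactive glia are recognised, averaged 7.90 ± 0.09 at 5000 lux (SD, n = 3) and stood at 5.09 on both 50 lux arrays, a 7.01-fold rise, a log2 difference of 2.81 (SE 0.35, adjusted p = 1.6e-04). Vim, another intermediate filament, was already bright at 50 lux, with 13.38, 13.55 and 13.41 at 5000 lux and 11.45 and 11.48 at 50 lux, and rose 3.96-fold. Ceruloplasmin, Cp, a copper-carrying ferroxidase, rose 6.8-fold by its brightest probe set, whereas its 8 tested probe sets had log2 differences from -0.37 to 4.03 and 6 passed. A2m, a protease inhibitor, rose 9.15-fold and Lgals1, galectin 1, 5.38-fold. Timp1, the inhibitor of matrix proteases, was at least 2.95-fold higher, with its lowest 5000 lux value (4.83) on replicate 2. The hyaluronan receptor Cd44 rose 3.92-fold and the metalloreductase Steap4 was at least 5.05-fold higher. Prss56, a secreted protease that Müller cells make, rose 14.8-fold and had adjusted p = 0.08 at most when an array was left out. Hspb1 was at 4.24, 7.38 and 3.85 at 5000 lux and 3.64 and 3.66 at 50 lux and did not pass; its high value was that of the array with lens RNA.

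Among 15 Müller glia genes outside the injury response, 3 rose and 4 fell, while 7.56% of all genes rose and 5.27% fell. Of these calls 1 rise and 2 falls held (list median -0.08). Rlbp1, the retinaldehyde-binding protein of Müller glia and RPE, stood at 10.99, 10.94 and 10.87 on the 5000 lux arrays, against 12.56 and 12.38 on the 50 lux arrays, a fall by 1.54 (SE 0.12, adjusted p = 2.3e-06). Glul, glutamine synthetase, fell 1.91-fold and Abca8a, a lipid transporter, 1.93-fold. Clu, the secreted chaperone clusterin, rose 1.86-fold. Glul and the carbonic anhydrase Car14 reached adjusted p of 0.076 and 0.12 when an array was left out, and Slc1a3 and Cyp26a1, which had risen, 0.14 and 0.18. The potassium channel Kcnj10 (log2 difference 0.14) and the water channel Aqp4 (0.16), which handle extracellular potassium and water, did not pass.

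Of 29 measured interferon-stimulated genes 26 rose, 22 of them held, and none fell, while 7.56% of all genes rose. The median log2 difference of the list was 2.46 (2.64 without replicate 2). Ifitm3, a membrane protein that blocks viral entry, stood at 9.60, 9.35 and 9.59 on the 5000 lux arrays, against 5.49 and 5.56 on the 50 lux arrays, a 15.9-fold rise, a log2 difference of 3.99 (SE 0.24, adjusted p = 3.1e-07). Bst2, which tethers enveloped viruses to the cell, was at least 6.14-fold higher, with 6.84, 6.23 and 6.79 at 5000 lux and 2.75 and 2.31 at 50 lux. The GTPase genes Gbp2 and Igtp rose 13.4-fold and 11.1-fold, and Gbp3 and Irgm1 were at least 6.66-fold and at least 6.69-fold higher. At 50 lux Gbp2 (3.11 and 4.51) and Igtp (3.55 and 4.19) were above log2 4 on 1 of 2 arrays each, so their folds rest partly on values near background. Oasl2, of the oligoadenylate synthetase family, was at least 5.02-fold higher, with 6.77, 5.78 and 6.43 at 5000 lux and 2.46 and 2.39 at 50 lux. The RNA sensor gene Ifih1 was at least 3.82-fold higher, and Ifit3, which binds foreign RNA, rose 5.65-fold.

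The transcription factors of the pathway rose too: Irf9 7.96-fold, Irf7 at least 5.94-fold higher, Irf1 5.49-fold and Stat2 3.1-fold. Irf8, a factor of myeloid cells, was at least 1.38-fold higher, with values near the floor (4.69, 4.26 and 4.45 at 5000 lux and 2.53 and 2.42 at 50 lux). Rsad2, Lgals3bp, Ddx58 and Trim21 rose but did not hold, with adjusted p of up to 0.079, 0.078, 0.11 and 0.37 when an array was left out. Iigp1, Ifitm1 and Ifi27 did not pass. Replicate 2 had the lowest list mean of the 5000 lux arrays, at 5.88 against 6.39 and 6.48 on replicates 1 and 3, and was the array with lens RNA; the 50 lux arrays were at 3.80 and 3.85.

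Class I antigen presentation rose in 10 of 12 genes, 9 of which held, while 7.56% of all genes rose. The list median was 1.81. B2m, beta-2 microglobulin, which pairs with every class I heavy chain, stood at 10.79, 10.45 and 10.69 on the 5000 lux arrays, against 8.10 and 7.83 on the 50 lux arrays, a 6.38-fold rise, a log2 difference of 2.67 (SE 0.22, adjusted p = 4.6e-06). The heavy chain genes H2-D1 and H2-K1 rose 4.25-fold and 3.82-fold; the H2 genes are near-identical, so their probe sets may read more than 1 of them. Psmb8, a subunit of the immunoproteasome that cuts peptides for class I, was at least 6.36-fold higher, and Psmb10 rose 3.0-fold. Of the genes that load peptides, Tap1 was at least 3.63-fold higher and Tapbp rose 3.24-fold. Nlrc5, the transcriptional activator of class I genes, averaged 5.42 ± 0.60 at 5000 lux and 2.24 ± 0.04 at 50 lux (SD, n = 3 and 2). Psmb9 had adjusted p = 0.13 without 1 array. The class II genes H2-Aa, H2-Eb1 and Cd74 did not reach log2 4 on 2 arrays.

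**Figure D3:**
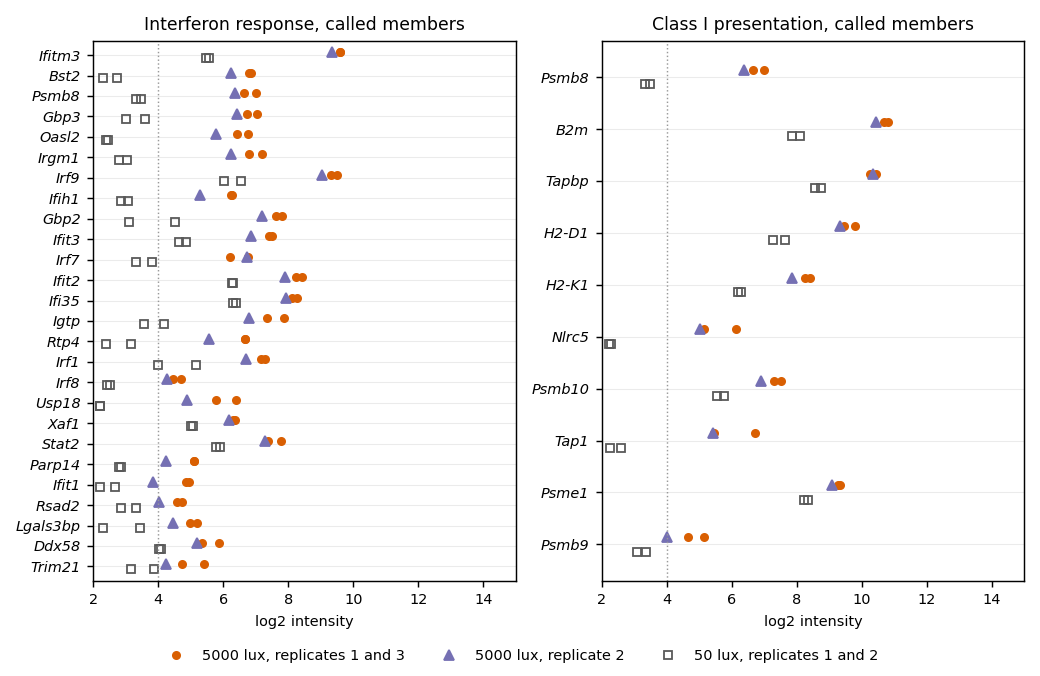
The log2 intensity of the called interferon response genes (left) and class I presentation genes (right) on each array, ordered by p; the dotted line is log2 4. The 3 arrays at 5000 lux (filled) lie above both 50 lux arrays (open squares) in every gene shown, with replicate 2 (triangles) mostly the lowest of them.

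The upstream sequences of 4 interferon-response genes are shown because these genes rose together and each holds the core of an interferon-stimulated response element. They are the 4 with the smallest adjusted p among members that rose, hold a match and have 1 promoter in the RefSeq table (GRCm38.p6). Each is the 250 bases before the start, read 5′ to 3′ along the gene, with matches to GAAA, any 2 bases, GAAA, or on the other strand TTTC, any 2 bases, TTTC, in capitals; overlapping matches run together. Bst2 covers chr8:71537473-71537722 on the reverse strand, Irgm1 chr11:48871421-48871670 on the reverse strand, Gbp2 chr3:142620413-142620662 on the forward strand and Ifit3 chr19:34583279-34583528 on the forward strand.
Bst2: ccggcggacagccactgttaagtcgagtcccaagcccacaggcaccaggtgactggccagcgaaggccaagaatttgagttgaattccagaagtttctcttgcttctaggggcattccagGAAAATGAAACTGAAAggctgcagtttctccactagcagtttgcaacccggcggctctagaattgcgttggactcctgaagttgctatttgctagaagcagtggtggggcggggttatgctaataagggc
Irgm1: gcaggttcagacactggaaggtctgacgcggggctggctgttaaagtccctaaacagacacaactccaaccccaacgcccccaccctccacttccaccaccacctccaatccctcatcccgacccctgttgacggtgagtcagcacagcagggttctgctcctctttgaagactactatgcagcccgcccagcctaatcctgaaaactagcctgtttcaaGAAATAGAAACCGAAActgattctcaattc
Gbp2: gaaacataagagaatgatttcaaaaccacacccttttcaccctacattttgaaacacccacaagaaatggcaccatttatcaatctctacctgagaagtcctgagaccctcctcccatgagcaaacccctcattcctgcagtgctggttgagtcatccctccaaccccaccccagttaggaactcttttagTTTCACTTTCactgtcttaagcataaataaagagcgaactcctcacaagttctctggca
Ifit3: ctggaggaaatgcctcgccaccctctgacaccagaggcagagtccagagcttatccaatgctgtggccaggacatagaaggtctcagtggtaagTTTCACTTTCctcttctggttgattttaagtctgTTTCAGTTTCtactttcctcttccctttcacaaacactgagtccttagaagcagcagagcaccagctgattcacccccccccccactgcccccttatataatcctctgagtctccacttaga
Bst2, Irgm1 and Ifit3 have 2 matches each and Gbp2 has 1. Of the 23 interferon-response genes that rose and have a promoter in the table, 9 held a match (39.1%), against 978 of all 32851 RefSeq starts (2.98%) and 256 of the 8879 tested genes that have one (2.88%). A gene with several starts was counted once if any start held a match. Among the 9 class I genes that rose and have a promoter, 1 held a match.

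Chemokines and inflammatory cytokines rose in 8 of 12 genes, 5 of which held, and none fell, while 7.56% of all genes rose. Ccl12, a monocyte chemoattractant, was at the lowest value on both 50 lux arrays, with 5.46, 5.30 and 5.53 at 5000 lux and 2.21 and 2.21 at 50 lux, and was at least 2.69-fold higher (adjusted p = 2.1e-07). Cxcl12, which guides leukocytes and progenitor cells, rose 4.36-fold, Csf1, the growth factor of microglia, 3.6-fold and the TWEAK receptor Tnfrsf12a 3.38-fold. Tnfrsf1a, the main TNF receptor, rose 2.48-fold. Cxcl16, Cxcl10 and Il33 did not hold (adjusted p up to 0.073, 0.078 and 0.1). The classical cytokines Il1b, Il1a and Tnf did not reach log2 4 on 2 arrays.

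Of 13 microglia and macrophage genes 4 rose, 3 of which held, and none fell, while 7.56% of all genes rose. Lgals3, galectin 3, a lectin of phagocytes that reactive glia also make, stood at 10.62, 10.66 and 11.08 on the 5000 lux arrays, against 6.23 and 5.59 on the 50 lux arrays, a 29.4-fold rise, a log2 difference of 4.88 (SE 0.37, adjusted p = 2.4e-06). The lysosomal protein Cd68 was at least 2.97-fold higher and the lipopolysaccharide co-receptor Cd14 at least 1.33-fold higher. Tyrobp, an adaptor of myeloid receptors, rose 2.18-fold from 50 lux values at the background limit (3.84 and 4.03; adjusted p up to 0.14 without 1 array). The defining genes of resident microglia did not pass: Csf1r was at 7.14, 5.99 and 6.46 at 5000 lux and 6.67 and 6.81 at 50 lux, Cx3cr1 at 4.19, 4.08 and 4.19 at 5000 lux and 4.19 and 4.19 at 50 lux, and P2ry12, Tmem119, Aif1 and Itgam stayed below log2 4 on all 5 arrays. The mean level of the 13 genes was 6.12, 5.50 and 5.68 at 5000 lux, against 4.76 and 4.72 at 50 lux. C1qa and C1qb, complement subunits made by microglia, were highest on replicate 1 at 5000 lux (6.97 and 7.68) and did not pass (adjusted p = 0.064 and 0.14); of the 3 tested probe sets of C1qb, all higher, 1 rose, and the largest difference was 2.11.

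Complement itself was measured for 5 genes, of which Serping1, Cfi and Cd59a rose, the first 2 holding. Cfi, which inactivates C3b, was at least 6.43-fold higher, with 6.64, 6.47 and 6.94 at 5000 lux and 2.92 and 3.32 at 50 lux. Cd59a, which blocks the membrane attack complex, rose 1.55-fold (adjusted p up to 0.14 without 1 array). C3 and C4b were not analysed here. In the vessel and adhesion list 2 of 11 genes rose and held: Vcam1, the leukocyte adhesion molecule, 4.15-fold, and the VEGF receptor Kdr 1.85-fold. The counts of both lists are small, and 7.56% of all genes rose.

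In the NF-kappaB list 6 of 9 genes rose and 1 fell, while 7.56% of all genes rose and 5.27% fell. Of these calls 1 rise (Bcl3) and the fall held. The fall was Tnfaip3, the deubiquitinase A20 that limits NF-kappaB, at 10.11, 10.19 and 9.99 on the 5000 lux arrays, against 11.07 and 11.08 on the 50 lux arrays, a difference of -0.98 (SE 0.11, adjusted p = 7.4e-05). Both of its tested probe sets fell. Nfkbia, the IkappaB alpha inhibitor, rose 1.75-fold, with an adjusted p of up to 0.057 when an array was left out. Nfkbie, Rela, Nfkbiz and Tnip1 rose with all arrays and reached 0.08, 0.099, 0.13 and 0.22.

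At 24 h after the light, 7 of the 15 measured immediate early and AP-1 genes were among the rises, none had fallen, and 2 held. By comparison, 7.56% of all genes rose. Junb stood at 8.11, 8.78 and 8.66 on the 5000 lux arrays, against 5.32 and 4.58 on the 50 lux arrays and Atf3, a stress-induced factor, at 9.09, 8.82 and 8.82 on the 5000 lux arrays, against 5.82 and 4.94 on the 50 lux arrays; they rose 11.9-fold and 11.6-fold. Jun rose 2.23-fold, with an adjusted p of 0.052 without 50 lux replicate 2. Klf6, Ier2, Nr4a1 and Ier3 rose by 0.95, 1.23, 1.36 and 0.60 and likewise did not hold (adjusted p up to 0.05, 0.07, 0.11 and 0.13). Among 15 p53 targets and death genes 4 rose, 3 of which held. Gadd45b, a stress-response partner of kinases, stood at 7.72, 7.67 and 8.27 on the 5000 lux arrays, against 4.10 and 3.97 on the 50 lux arrays, a 14.4-fold rise, and Gadd45g rose 2.53-fold. Mcl1, a survival factor of the Bcl2 family, rose 1.88-fold. Casp8 passed with both group means below log2 4 and did not hold (adjusted p up to 0.067). Mdm2 (log2 difference 0.09) and Ccng1 (0.11), both direct p53 targets, did not pass; without 5000 lux replicate 1, 1 gene of the list fell.

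Photoreceptor transcripts were lower by smaller amounts. Of 13 rod phototransduction genes 9 fell, 3 of which held, and none rose, while 5.27% of all genes fell. The list median was -0.55 (-0.60 without replicate 2). In all 13 the 5000 lux arrays lay below both 50 lux arrays, as they did in 22.4% of all genes. The number that fell was 9 with all arrays and without replicate 2, 5 without replicate 1 or 3 at 5000 lux, and 3 and 4 without replicate 1 and 2 at 50 lux. Pde6a, the alpha subunit of the rod phosphodiesterase, stood at 10.83, 10.63 and 10.39 on the 5000 lux arrays, against 12.16 and 11.93 on the 50 lux arrays, a difference of -1.43 (SE 0.20, adjusted p = 3.9e-04). Pde6b, its beta subunit, stood at 13.60, 13.83 and 13.71 on the 5000 lux arrays, against 14.27 and 14.30 on the 50 lux arrays, a 1.49-fold fall (adjusted p = 0.0025). Cngb1, a subunit of the cyclic GMP-gated channel, fell 1.86-fold, with 9.91, 10.19 and 9.72 at 5000 lux and 10.94 and 10.74 at 50 lux. Of the falls that did not hold, Pde6g, Slc24a1, Gngt1, Nrl, Gnb1 and Rgs9, the rod transcription factor Nrl fell by 0.55 and the transducin gamma subunit Gngt1 by 0.52; their adjusted p without 1 array ran from 0.062 to 0.23. Arrestin, Sag, and the transducin alpha subunit Gnat1 had -0.16 and -0.24 and did not pass (adjusted p = 0.4 and 0.12).

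In 21 genes of photoreceptor recovery, discs and cilium 11 fell, 3 of which held, and none rose (list median -0.46). By comparison, 5.27% of all genes fell. Without replicate 1 or 3 at 5000 lux 7 and 5 fell, and without replicate 1 or 2 at 50 lux 4 and 3. Gucy2e, a guanylate cyclase that restores cyclic GMP, stood at 3.43, 3.22 and 3.07 on the 5000 lux arrays, against 4.92 and 5.07 on the 50 lux arrays, at least 1.99-fold lower (adjusted p = 1.7e-04). Cabp4, a calcium-binding protein of the photoreceptor synapse, stood at 10.94, 11.21 and 11.10 on the 5000 lux arrays, against 12.04 and 11.98 on the 50 lux arrays, a difference of -0.93 (SE 0.12, adjusted p = 1.6e-04). Rom1, a disc rim protein, fell 1.46-fold. The 8 falls that did not hold reached adjusted p of 0.052 to 0.22. Crx and Otx2, the transcription factors of photoreceptors, fell by 0.46 and 0.40 and reached 0.15 and 0.18 without 1 array. Prph2, the partner of Rom1 at the disc rim, was at 12.75, 7.94 and 11.41 at 5000 lux and 13.89 and 13.42 at 50 lux. It did not pass with all arrays (-2.95, adjusted p = 0.068) or without replicate 2 at -1.57 (adjusted p = 0.069), and replicate 2, which carried the lens RNA, had its lowest value. The disc protein Prom1 (-0.10), the axoneme protein Rp1 (-0.21) and phosducin, Pdc (-0.08), did not pass.

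Of 10 cone genes 1 rose and 2 fell, and only the rise held. Over all genes 7.56% rose and 5.27% fell, so such small counts do not describe cone genes as a group. Gnb3, the transducin beta subunit of cones, stood at 12.23, 12.35 and 12.45 on the 5000 lux arrays, against 11.06 and 10.88 on the 50 lux arrays, a 2.59-fold rise, a log2 difference of 1.38 (SE 0.14, adjusted p = 2.0e-05). Cone arrestin, Arr3, and the cone transducin alpha subunit, Gnat2, fell 2.25-fold and 1.65-fold, and reached adjusted p of 0.14 and 0.16 without 1 array; without replicate 2 Arr3 had -1.11 (adjusted p = 0.054). The short-wave opsin Opn1sw was at 11.07, 11.16 and 10.58 at 5000 lux and 11.97 and 12.00 at 50 lux and did not pass (adjusted p = 0.12), while its other tested probe set fell by 1.81, and the middle-wave opsin Opn1mw overlapped between groups (9.62, 9.28 and 9.02 at 5000 lux and 9.48 and 9.53 at 50 lux).

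**Figure D4:**
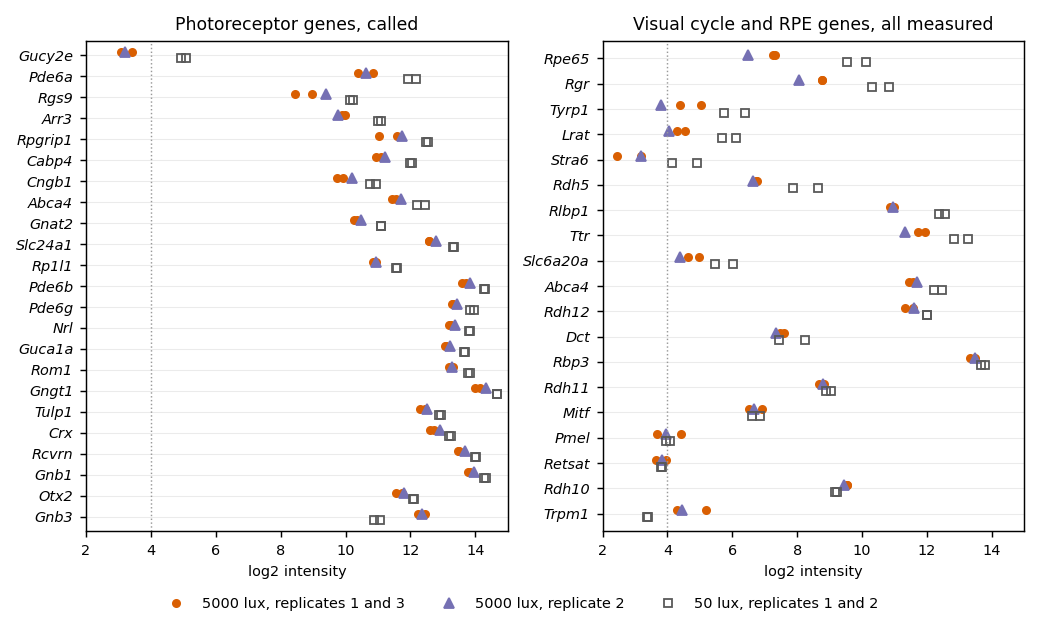
The log2 intensity of the called genes of the rod, cone and photoreceptor recovery, disc and cilium lists (left) and of every measured visual cycle and RPE gene (right) on each array, ordered by difference; the dotted line is log2 4. The 5000 lux arrays (filled) lie left of the 50 lux arrays (open squares) in all called photoreceptor genes but Gnb3, and the gap is widest for Rpe65 and Rgr on the right.

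The visual cycle fell in 8 of 12 genes, while 5.27% of all genes fell, and only Rlbp1 held. The list median was -1.15. Rpe65, the isomerase of the RPE that makes 11-cis retinol, stood at 7.32, 6.47 and 7.27 on the 5000 lux arrays, against 10.12 and 9.54 on the 50 lux arrays, a 7.04-fold fall with a log2 difference of -2.82 (SE 0.51, adjusted p = 0.0031); leaving out 50 lux replicate 1 gave adjusted p = 0.054. Rgr, an opsin of RPE and Müller glia, fell 4.1-fold, the retinol dehydrogenase Rdh5 2.93-fold, and the esterifying enzyme Lrat 3.05-fold. Stra6, the retinol-binding protein receptor, was at least 1.44-fold lower. Abca4, the retinoid flippase of photoreceptor discs, and Rdh12, a photoreceptor dehydrogenase, fell by 0.76 and 0.51. The 7 falls that did not hold reached adjusted p of 0.054 to 0.30. Rdh10 (0.32), Rdh11 (-0.20), Rbp3 (-0.29) and Retsat did not pass. Without 50 lux replicate 1 only Rlbp1 fell, and 5 fell without any other single array other than replicate 2 at 5000 lux, which left 6.

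These genes lie partly in the list of RPE markers, of which 8 of 13 fell with all arrays, 5 without 5000 lux replicate 2 and 1 without 50 lux replicate 1. By comparison, 5.27% of all genes fell with all arrays and 4.5% without 5000 lux replicate 2. The mean level of the 13 markers was 6.55, 6.26 and 6.58 at 5000 lux, against 7.80 and 7.33 at 50 lux. Ttr, transthyretin, and Tyrp1, of melanin synthesis, fell 2.61-fold and 3.17-fold with all arrays, and had -1.21 (adjusted p = 0.06) and -1.36 (adjusted p = 0.06) without replicate 2. Mitf, Pmel and Dct, of pigment cells, overlapped between the groups, Trpm1 was higher without passing (log2 difference 1.27, adjusted p = 0.14), Slc6a20a had -1.08, and Best1, Tyr, Slc45a2, Mlana and Ermn did not reach log2 4 on 2 arrays. The share of RPE tissue in these retinas and its part in the falls was not tested.

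The remaining large falls were of mixed function. Glb1l3, a beta-galactosidase-like gene, stood at 3.25, 4.17 and 3.29 on the 5000 lux arrays, against 6.78 and 7.10 on the 50 lux arrays, above log2 4 on 1 of 3 arrays at 5000 lux, with a difference of -3.37 (SE 0.40, adjusted p = 1.1e-04) that rests partly on values below it. The non-coding host gene Mir670hg was at least 4.15-fold lower. Hcls1, a cortactin relative of blood cells, fell 5.6-fold, Spc25, a kinetochore protein, 4.85-fold, Fndc1, with fibronectin domains, 4.84-fold, and Ctxn1, a neuronal membrane protein, 4.4-fold. Syne3, a nuclear envelope protein, varied from 2.92 to 5.72 at 5000 lux and fell 6.86-fold. Syne3, Pon1, Fam107a and Rpe65 did not hold, with adjusted p of 0.093, 0.11, 0.11 and 0.054 without 1 of the 50 lux arrays. Setd5, a chromatin protein, fell by 2.05 on its brightest probe set and by 0.11, without passing, on the other.

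Of 20 matrix genes 4 rose and 3 fell, with Timp1 and Col4a3 holding, while 7.56% of all genes rose and 5.27% fell. The collagen IV chains split: Col4a3 stood at 4.34, 5.25 and 4.24 on the 5000 lux arrays, against 7.45 and 7.11 on the 50 lux arrays, a difference of -2.67 (SE 0.32, adjusted p = 1.1e-04), and Col4a4, its neighbour on chromosome 1, at 5.54, 6.84 and 6.23 on the 5000 lux arrays, against 7.66 and 7.42 on the 50 lux arrays, a difference of -1.33 (SE 0.33, adjusted p = 0.021), while Col4a5 rose 2.08-fold. Col4a4 and Col4a5 had adjusted p of up to 0.17 and 0.054 without 1 array. Adamts1 and Fn1 rose and Thbs1 fell, none of them holding (adjusted p up to 0.061, 0.2 and 0.1).

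Metal and heme genes rose in 7 of 16, 6 of which held, while 7.56% of all genes rose. Cp, Lcn2 and Steap4 were already given. The metallothionein Mt2 stood at 10.17, 9.97 and 10.41 on the 5000 lux arrays, against 8.27 and 7.93 on the 50 lux arrays and Mt1 at 11.33, 11.09 and 11.44 on the 5000 lux arrays, against 9.95 and 9.75 on the 50 lux arrays, rises of 4.23-fold and 2.71-fold. Mt3, the brain metallothionein, was lower on all 5000 lux arrays (5.71, 5.37 and 5.21 at 5000 lux and 6.69 and 6.36 at 50 lux) and did not pass (adjusted p = 0.088). Hmox1, heme oxygenase 1, was at least 1.84-fold higher, while Hmox2 (-0.05) and the ferritin heavy chain Fth1 (0.01) did not pass. Slc39a14, a zinc and iron importer, rose 1.44-fold without holding (adjusted p up to 0.18), and 1 gene of the list fell without 5000 lux replicate 1.

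The other stress and metabolic lists are likewise read beside the 12.8% of all genes that passed in either direction. Sod2, the mitochondrial superoxide dismutase, was the only 1 of 18 antioxidant genes to rise (0.45, adjusted p = 0.041) and was lost in each fit that left out 1 array (adjusted p up to 0.26). Of 20 thioredoxin-fold genes Pdia6, Txnrd3 and Txnrd1 rose by 0.68, 1.25 and 0.61 and did not hold (adjusted p up to 0.15, 0.16 and 0.17). Of 19 unfolded protein response genes Ddit3 and Eif2ak3 rose by 0.48 and 0.39 and did not hold (adjusted p up to 0.33 and 0.2). Among 14 heat shock genes Dnajb1, Bag3 and Cryab rose and did not hold (adjusted p up to 0.061, 0.069 and 0.18). Cryab, the alpha B crystallin of lens and glia, was at 11.09, 14.24 and 11.23 at 5000 lux and 9.67 and 9.54 at 50 lux; its difference was 2.58 (SE 0.74, adjusted p = 0.041) with all arrays and 1.56 (adjusted p = 0.045) without replicate 2. None of 19 glycolysis genes passed (list median -0.16), the nearest being the pyruvate kinase Pkm (-0.31, adjusted p = 0.061); without 5000 lux replicate 1, 1 fell. Of 18 cholesterol genes the phosphomevalonate kinase Pmvk rose 3.3-fold and held, with 9.81, 9.75 and 9.62 at 5000 lux and 7.95 and 8.06 at 50 lux, and Dhcr7 fell 1.68-fold without holding (adjusted p up to 0.16).

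Genes of inner retinal neurons are read beside the 12.8% of all genes that passed in either direction. Of 12 bipolar genes 1 fell (Vsx1, -0.93), of 10 amacrine genes none passed, of 11 ganglion cell genes Gap43 rose (0.83) and Rbpms fell (-1.09), and of 5 horizontal cell genes Septin4 fell (-0.79); of these only Septin4 held, and Vsx1, Gap43 and Rbpms reached 0.24, 0.16 and 0.18. None of 8 neuropeptide genes passed. The 5000 lux arrays differed among themselves here: the ganglion cell list averaged 8.80 on replicate 1, against 8.19 and 8.26 on replicates 2 and 3, and the 50 lux arrays stood at 8.84 and 8.73. The amacrine list was likewise at 9.58, 9.08 and 9.22 at 5000 lux and at 9.50 and 9.59 at 50 lux, and without replicate 1 at 5000 lux 1 amacrine gene fell. Clock genes (2 of 17 up and 1 down) and cell cycle genes (3 of 7 up) held none of their calls, with adjusted p of 0.20 to 0.31 and of 0.27 to 0.30. Of markers of other tissue, 1 of 12 blood genes and 1 of 12 cornea, iris and ciliary body genes were measured. The blood gene Hba-a2 passed with both group means below log2 4 (3.72, 4.10 and 3.87 at 5000 lux and 3.04 and 3.23 at 50 lux). Aldh1a1, of cornea and ciliary body, did not pass (0.49, adjusted p = 0.16). Aldh3a1, of the same list, was not tested. It stood at 5.30 on 5000 lux replicate 2, the array with lens RNA, and at 2.21 on every other array of the 2 groups.

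**Figure D5:**
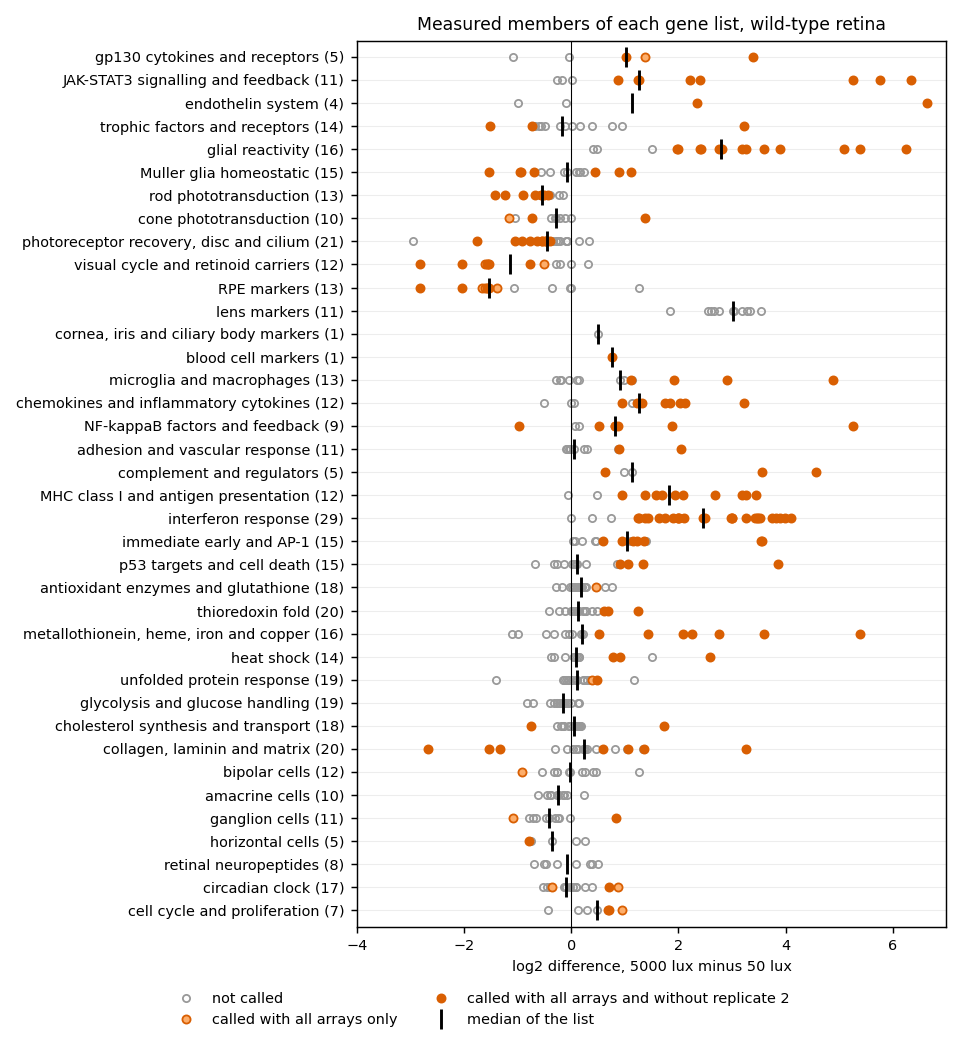
The log2 difference, 5000 minus 50 lux, of every measured member of each gene list, with the number measured in brackets; the black bar is the list median. Filled points passed the test with all arrays (dark also without 5000 lux replicate 2), open points did not; the interferon and glial lists lie to the right, the rod and visual cycle lists to the left, and the lens list holds open points only.

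The wild-type response at 5000 lux was also set against 2500 lux, with 3 arrays in each group. No probe set of 23320 passed in limma, while 1917 had an unadjusted p under 0.05 (8.22%). Among the 24 genes with the largest changes at 5000 lux, the differences between 5000 and 2500 lux were between 0.007 and 1.52 in size, with a median of 0.24 on the log2 scale. Edn2 averaged 10.37 at 5000 lux and 10.15 at 2500 lux, a difference of 0.22 (SE 0.30). The 5 genes with the smallest p were Setd5 (log2 difference -1.52), Ddx41, Cpeb1, Prpf4 and Rab40b, none of which passed. Without 5000 lux replicate 1, 11 probe sets were higher and 19 lower at 5000 lux.

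The response of Nxnl1-/- retinas to 5000 lux (2 arrays, against 3 at 50 lux) differed from that of wild-type retinas in 6 probe sets (0.0257%). Counted by the brightest probe set of each gene, 4 genes differed (0.0366% of genes): Nudt6, Sox30, Edn2 and Cebpd. All 4 had a smaller rise in Nxnl1-/- retinas. Not all of the 6 probe sets map to these 4 genes alone. An unadjusted p under 0.05 was found in 1908 probe sets (8.18%). Nudt6 averaged 10.81 ± 0.16 at 5000 lux and 8.71 ± 0.19 at 50 lux in Nxnl1-/- retinas, against 11.10 ± 0.10 at 5000 lux and 6.41 ± 0.07 at 50 lux in wild-type retinas (SD, n = 2, 3, 3 and 2). The difference of the 2 responses was -2.59 (SE 0.20, adjusted p = 0.00022). Edn2 averaged 10.15 at 5000 lux and 7.52 at 50 lux in Nxnl1-/- retinas, against 10.37 at 5000 lux and 3.73 at 50 lux in wild-type retinas. The wild-type 50 lux values of Edn2 were below log2 4, so the size of its difference in response is not a measured one. Leaving out wild-type 5000 lux replicate 3 or wild-type 50 lux replicate 2 ended the call for Cebpd, with adjusted p of 0.094 and 0.087. Without wild-type 5000 lux replicate 2 the probe sets that passed were 3 with a larger and 5 with a smaller response in Nxnl1-/- retinas, and with no filter on low values 31 and 8. Lens RNA was also present on Nxnl1-/- arrays: the 11 lens genes averaged 3.07 and 7.76 at 5000 lux and 8.50, 6.67 and 5.86 at 50 lux, and its part in the difference between the genotypes was not tested.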

How the data were processed

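Retinal RNA was hybridised to Affymetrix mouse genome arrays. The deposited values are linear intensities, made by the authors with GCRMA, per the submitters' processing notes, which as given here state no version. GCRMA sets many dim probe sets to 1 low value, so folds against a group below log2 4 on every array are lower bounds, computed against log2 4. Log2 intensities were fitted with limma 3.58.1 (R 4.3.3) as 6 group means over all 16 arrays, with eBayes and Benjamini-Hochberg adjustment over 23320 probe sets that exceeded log2 4 on at least 2 arrays. A gene was represented by its brightest probe set that carries its symbol alone (10916 genes). P-values measure the spread between arrays within groups, pooled over all 16 arrays. The labels call the arrays biological replicates but do not say whether an array held 1 animal or a pool. How much of the spread is technical is not known. The named genes were the 12 largest rises and falls among genes that passed with and without 5000 lux replicate 2, did not overlap between groups and had a brighter mean above log2 6, the genes that moved most without that array, the 5 with the smallest p in the dose and genotype contrasts, Nxnl1, Nxnl2 and members of the gene lists. Members and lists were chosen with earlier results of these data known. Alternatives left out each array and varied the filter on low values, scaling, pseudocount, weights, variance model, array set and replicate block. The fit was also run on simulated data with independent normal noise, which had no background floor and no array with lens RNA. No result given here rests on that run.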

Additional observations from a re-analysis of the deposited data

Results flagged for a closer look

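In 4 genes the rise at 5000 lux over 50 lux was smaller in Nxnl1-/- than in wild-type retinas by limma's test of the difference between the 2 responses. Nudt6 had a difference of -2.59 (SE 0.20, adjusted p = 0.00022), and its Nxnl1-/- values were 10.92 and 10.69 at 5000 lux and 8.50, 8.87 and 8.77 at 50 lux. Sox30, a transcription factor of the testis, had -1.70 (SE 0.19, adjusted p = 0.0057). In Nxnl1-/- retinas it stood at 9.33 and 9.31 at 5000 lux and at 7.39, 7.60 and 7.72 at 50 lux, and in wild-type retinas at 9.42, 9.65 and 9.64 at 5000 lux and 5.94 and 6.33 at 50 lux. Edn2 had -4.01 (SE 0.47, adjusted p = 0.0060), a size that rests on wild-type 50 lux values below log2 4, with Nxnl1-/- values of 10.09 and 10.20 at 5000 lux and of 6.83, 7.35 and 8.36 at 50 lux. Cebpd had -2.46 (SE 0.33, adjusted p = 0.022), with Nxnl1-/- values of 11.64 and 11.74 at 5000 lux and of 7.83, 7.58 and 8.02 at 50 lux. For Cebpd the adjusted p was 0.094 without wild-type 5000 lux replicate 3 and 0.087 without wild-type 50 lux replicate 2, while the other 3 genes passed when any single array of the wild-type groups was left out. All 4 also rose in Nxnl1-/- retinas, by 2.10 (Nudt6), 1.74 (Sox30), 2.63 (Edn2) and 3.88 (Cebpd), and at 50 lux every Nxnl1-/- value lay above both wild-type values.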

How the results depend on the processing

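With all arrays 2447 probe sets passed, and leaving out 1 of the 5 arrays at a time gave 1025 to 2100, the lowest without 50 lux replicate 1 (740 higher, 285 lower), then 1284 without 50 lux replicate 2 and 1569 without 5000 lux replicate 3. Array weights gave 5512, and the 4 wild-type arrays left without 5000 lux replicate 2, an alternative chosen after seeing the data, gave 714. The other settings gave counts within 1.5 times of 2447; median centring turned the split to 1242 higher and 1305 lower and quantile normalization to 1264 and 1215. Of the 196 named genes, none of the 124 that passed changed direction under any setting. Of the 124, 72 passed under every left-out array and 58 under every setting that tested them. The stricter filter, log2 above 6 on at least 2 arrays, tested 113 of the 124. The step between 5000 and 2500 lux gave 0 to 30 probe sets with 1 array left out (30 without 5000 lux replicate 1) and 0 otherwise. The difference in response between genotypes gave 6, and 4 to 9 with 1 wild-type 5000 lux array left out. No Nxnl1-/- array was left out. With no filter on low values it gave 39 (31 higher and 8 lower in Nxnl1-/- retinas). For same-numbered wild-type arrays at 5000 and 50 lux the correlation of deviations from the group means was 0.05 for replicate 1 and -0.09 for replicate 2. With 2 arrays at 50 lux their deviations are mirror images of each other. These values are therefore not separate checks and cannot show whether the arrays deviated together. Over all 36 same-numbered pairs of the 6 groups the correlation ran from -0.24 to 0.69, with 21 above 0.1. Some same-numbered arrays thus did deviate together, such as replicate 1 at 5000 lux of the 2 genotypes (0.69). What such arrays shared was not tested. The labels give no batch, and the main fit did not treat the arrays as paired. With the replicate block 2761 probe sets passed for 5000 against 50 lux and 7 for the genotype difference. With 2 arrays at 50 lux, the number of arrays limits the precision, and values near log2 4 are compressed by the background floor.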
